A study of Mus musculus with 4 samples.

Results

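The genes described here are 35 mouse genes of the endoplasmic reticulum (ER): its chaperones and protein-folding enzymes, the channel through which new proteins enter it, and the sensors that respond when unfolded protein builds up in it. They were picked out by the gene symbol in the files, by a rule that uses no measured value. The list itself was set with earlier results of these data known. All 35 were found among the 54838 genes of the files. RNA was sequenced from Hepa1-6 cells, a mouse hepatocellular carcinoma cell line. The NC group (2 libraries) is labelled wild type for Acvr2a, the gene of a type II activin receptor, and the KO group (2 libraries) is labelled Acvr2a knockout. The series' design text calls the KO cells subclones, and the labels do not say whether the libraries of a group came from separate subclones or cultures, so p-values measure only the spread between these libraries, which may be technical. No treatment, time or agent is given, and an effect of the knockout cannot be told apart from a difference between clones.

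Secreted and membrane proteins enter the ER through the Sec61 channel, fold there with the help of chaperones and disulfide isomerases, and are sent back to the cytosol for destruction when folding fails (ER-associated degradation, ERAD). When unfolded protein builds up, the membrane sensors IRE1 (gene Ern1), PERK (Eif2ak3) and ATF6 (Atf6) start the unfolded protein response, in which ATF6 and the transcription factor XBP1, whose mRNA IRE1 splices, raise chaperone and ERAD genes. Hepatocytes and the hepatoma cells derived from them secrete large amounts of plasma protein. In many chaperone genes ATF6 and XBP1 act through the ER stress response element (ERSE) and related elements in the promoter.

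Because these elements are the known point of joint control, they were looked for in the RefSeq promoter windows of the members (GRCm38.p6, 250 bases before and 50 bases after the annotated start). A window was given for 29 of the 35 members. Atf6, Derl1, Hyou1, Manf, Sec61a1 and Ssr2 had none and were not searched. The ERSE was searched on both strands as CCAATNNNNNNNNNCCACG, ERSE-II as ATTGGNCCACG and the core of the unfolded protein response element (UPRE) as TGACGTG; ERSE-II holds both ERSE half-sites at another spacing and on opposite strands, so that a match to one is never the same bases read as the other. The ERSE was found for 9 of the 29 members (31.0%), against 37 of all 27025 genes with a window (0.137%). The members with it include genes on which the element was first described, so this is a description of the list and not an independent result. The sites are shown on the strand that reads as the motif, with the fixed letters in capitals and positions counted from the annotated start as 0.
Calr (-162 to -144; chr8:84847075-84847093): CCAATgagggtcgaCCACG
Canx (-145 to -127; chr11:50325800-50325818): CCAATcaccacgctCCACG
Creld2 (-126 to -108; chr15:88819520-88819538): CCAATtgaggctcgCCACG
Derl3 (-156 to -138; chr10:75893242-75893260): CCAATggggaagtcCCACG
Dnajc3 (-105 to -87; chr14:118937827-118937845): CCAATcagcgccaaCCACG
Hsp90b1 (-212 to -194; chr10:86705638-86705656): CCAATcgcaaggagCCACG
Hsp90b1 (-107 to -89; chr10:86705533-86705551): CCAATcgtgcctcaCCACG
Hspa5 (-65 to -47; chr2:34772025-34772043): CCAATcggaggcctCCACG
Pdia6 (-98 to -80; chr12:17266491-17266509): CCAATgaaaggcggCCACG
Syvn1 (-44 to -26; chr19:6046532-6046550): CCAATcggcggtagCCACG

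ERSE-II was found for 2 members (6.9%, against 12 of 27025 genes or 0.0444%), here with the same marking.
Dnajb11 (7 to 17; chr16:22857852-22857862): ATTGGcCCACG
Herpud1 (-52 to -42; chr8:94386377-94386387): ATTGGgCCACG

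The UPRE core was found for 1 member, Hspa5 (3.45% of members against 2.22% of genes). It lies from -157 to -151 relative to the start of Hspa5, upstream of its ERSE. The GENCODE M21 model of Hspa5 begins at position 34771970 of chromosome 2, upstream of the RefSeq start, so the ERSE of Hspa5 lies inside that model. GENCODE and RefSeq starts also differ for Calr, Derl3, Dnajc3, Herpud1, Hsp90b1 and Pdia6. Positions therefore count from the RefSeq start only. No match says only that these letters are not in a window.

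**Figure D1:**
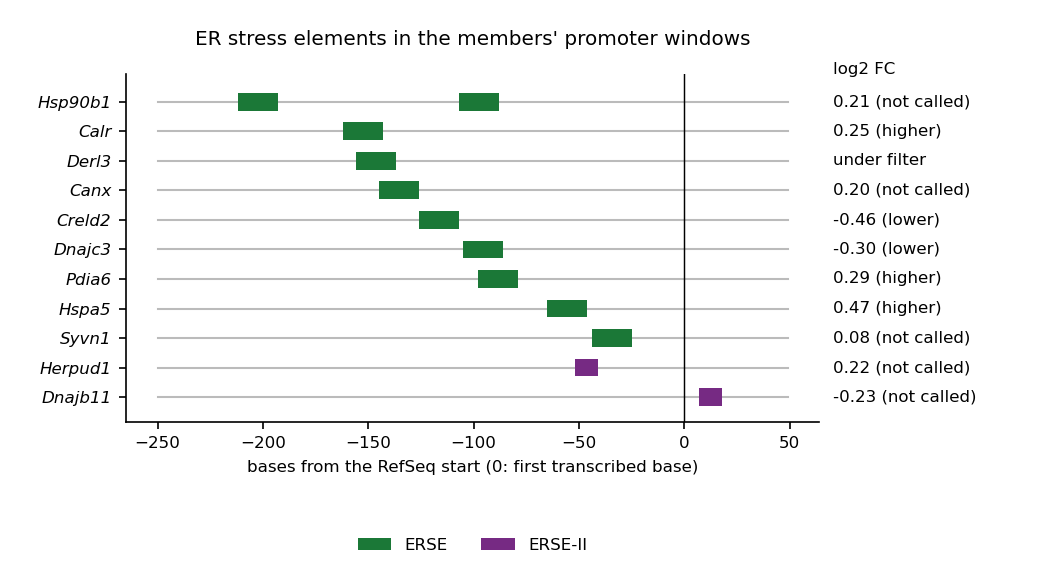
Position of ERSE (green) and ERSE-II (purple) matches in the promoter windows of 11 members, in bases from the RefSeq start; the grey line is the window and the log2 fold change of each gene between KO and NC stands at the right. Apart from the ERSE-II of Dnajb11, which begins 7 bases after the start, all sites lie between 212 and 26 bases before it, and genes with an ERSE are found among those higher, those lower and those not called.

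Libraries held between 11597923 and 13910582 counts (the authors' expected counts per gene, rounded). Acvr2a itself was at 7.12 and 7.80 CPM (counts scaled to a common library size) in NC and 5.69 and 7.18 CPM in KO, a log2 fold change of -0.21 (95% interval -0.63 to 0.20; edgeR adjusted p = 0.433), so its total RNA level does not check the labels, and KO and NC below mean the libraries with those labels. Hepatocyte markers summed to between 1870 and 1980 CPM in NC and between 1930 and 2120 CPM in KO, with Alb (758 to 1150 CPM) and Trf (381 to 564 CPM) high in all libraries and Ttr and Serpina1a under 1 CPM. Of the 8 tested, 3 were lower (Afp by -1.21, Hnf4a by -1.0, Foxa2 by -0.89) and 2 higher (Alb by 0.41, Trf by 0.54) in KO, on the log2 scale; their part in the results below was not tested. Markers of leukocytes summed to between 0.528 and 0.794 CPM in NC and between 1.33 and 1.59 CPM in KO, with Cd3e at 0, and those of endothelium to at most 1.06 CPM in any library. Of the stellate cell and fibroblast markers, Lrat and Lum had no count in any library, while Dcn was at 1470 and 1480 CPM in NC and 1610 and 1680 CPM in KO, and Des rose from 3.78 and 3.97 CPM to 9.56 and 9.33 CPM (log2 fold change 1.28, adjusted p = 2.76e-05). The part of these markers in the results was not tested.

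In GENCODE M21 (GRCm38) the members on which the results rest most are protein-coding genes: Hspa5 at chr2:34771970-34777547 (plus strand), Eif2ak3 at chr6:70844515-70905245 (plus), Ern1 at chr11:106394650-106487852 (minus), Sec61b at chr4:47474658-47483242 (plus), Sec61g at chr11:16500530-16508484 (minus) and Ssr2 at chr3:88575876-88588419 (plus). Exons of Eif2ak3 overlap Gm43292 and those of Ssr2 overlap Gm10704, each on the other strand, and the other 4 overlap no annotated exon of another gene. Counts are per whole gene, over all exons.

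Of the 35 members, 34 had enough counts to be tested and Derl3 fell under the filter. In KO 5 were higher and 9 lower past an adjusted p of 0.05 (edgeR quasi-likelihood test, adjusted over all 12510 genes tested). That is 41.2% of the members tested, where 37.9% of all genes tested were called, so the members were called about as often as other genes. In KO 14.7% of members were higher and 26.5% lower, against 19.7% and 18.2% of all genes. The median log2 fold change of the members was -0.088, against -0.0037 over all genes. The changes were small: 0 members passed both the threshold and 2-fold, where 6.85% of all genes did. The median size of the log2 fold change was 0.221 for the members and 0.278 for all genes, and 49.6% of called genes had a larger change than the largest among the members (0.525 in size on the log2 scale, Ern1). KO and NC values were fully separated for 28 of 34 members, and for 69.4% of all genes. The calls differed in how firm they were. DESeq2 called 10 of the 14 genes (without Creld2, Derl2, Dnajc3 and Sel1l), or 29.4% of members tested, against 25.7% of all genes. Limma on log2(TPM + 1) called 3 (Hspa5, Pdia6 and Derl2), or 8.82% of members tested, against 17.3% of all genes. Leaving out any 1 library never ended the calls of Hspa5, Eif2ak3, Ern1, Sec61b, Sec61g and Ssr2. In bulk RNA less RNA of a gene in every cell and fewer cells that express it cannot be told apart.

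**Figure D2:**
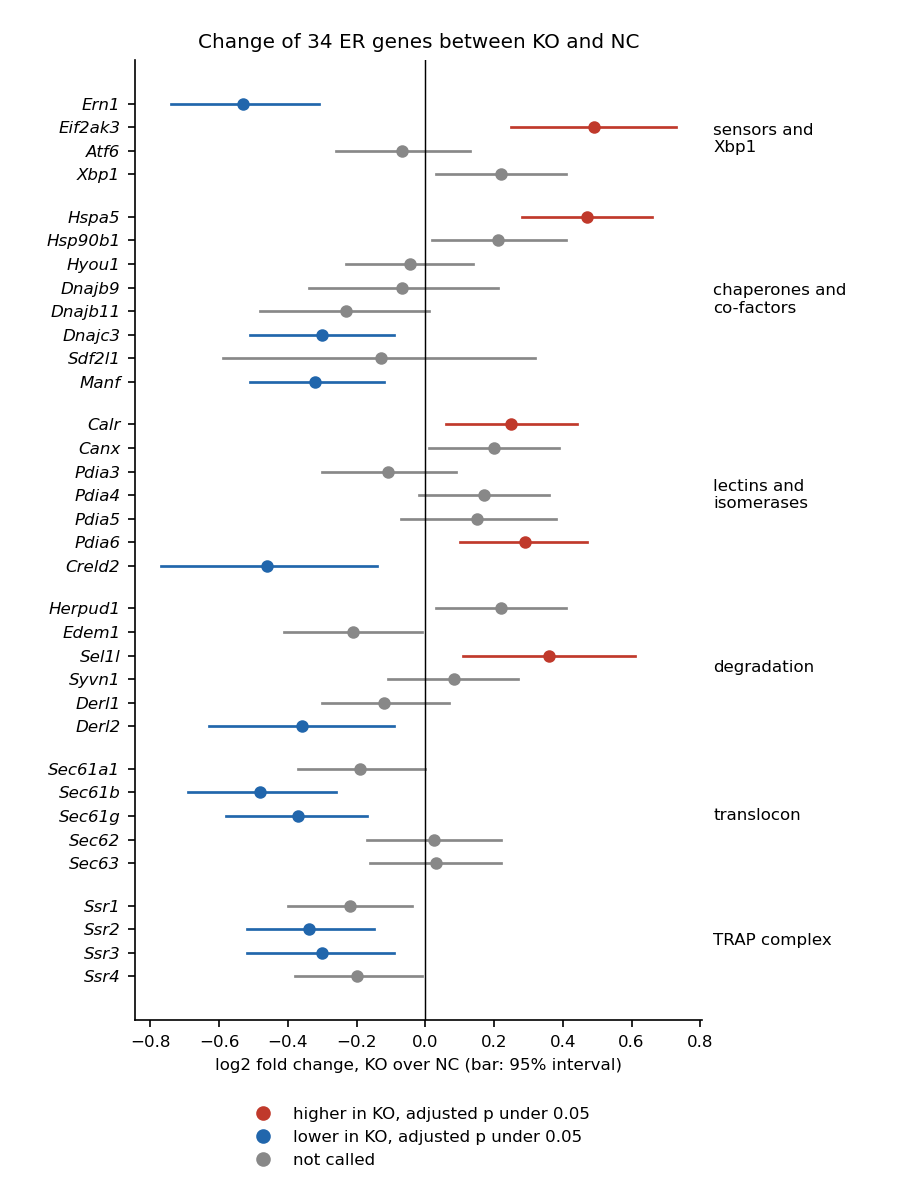
Log2 fold change of each of the 34 tested members between KO and NC, grouped by role, with its 95% interval; red and blue mark genes higher and lower in KO past an adjusted p of 0.05. Higher and lower genes stand side by side in the first 4 roles, while the translocon and TRAP genes that were called were all lower.

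The summed level by role, in TPM (the authors' abundance values, scaled for transcript length and library size), is given first. The Hsp70, Hsp90 and co-factor genes summed to 793 and 818 TPM in NC and to 978 and 917 TPM in KO, a ratio of the means of 1.18. Hspa5 (242 to 344 TPM) and Hsp90b1 (294 to 365 TPM) carried this sum: over the 8 genes of the role the median log2 fold change in the count fit was -0.101, with 6 negative, 1 called higher and 2 lower. The lectin and disulfide isomerase genes summed to 1017 and 1082 TPM in NC and to 1259 and 1175 TPM in KO, a ratio of 1.16. Calr (mean 417 to 522 TPM) made up most of that rise, while Pdia3 (275 to 266 TPM) and Creld2 (16.6 to 12.7 TPM) were lower. For the sums of both roles the KO libraries lay above the NC libraries. The translocon genes went from 940 and 921 TPM to 803 and 711 TPM (ratio 0.814), and the translocon-associated TRAP genes from 1137 and 1158 TPM to 999 and 960 TPM (ratio 0.854), with no overlap between groups. The sensor genes and Xbp1 summed to 149 and 167 TPM in NC and 181 and 188 TPM in KO (ratio 1.17), most of it Xbp1. The ERAD genes overlapped (223 and 240 TPM against 237 and 239 TPM). Summed over all 35 members the level was 4259 and 4387 TPM in NC and 4457 and 4190 TPM in KO, with overlap and a ratio of 1.0. On log2(TPM + 1) the median log2 fold change over all genes was itself 0.0596, against -0.0037 in the count fit. With 2 libraries a group an exact permutation test cannot reach 0.05, and these sums carry no test.

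**Figure D3:**
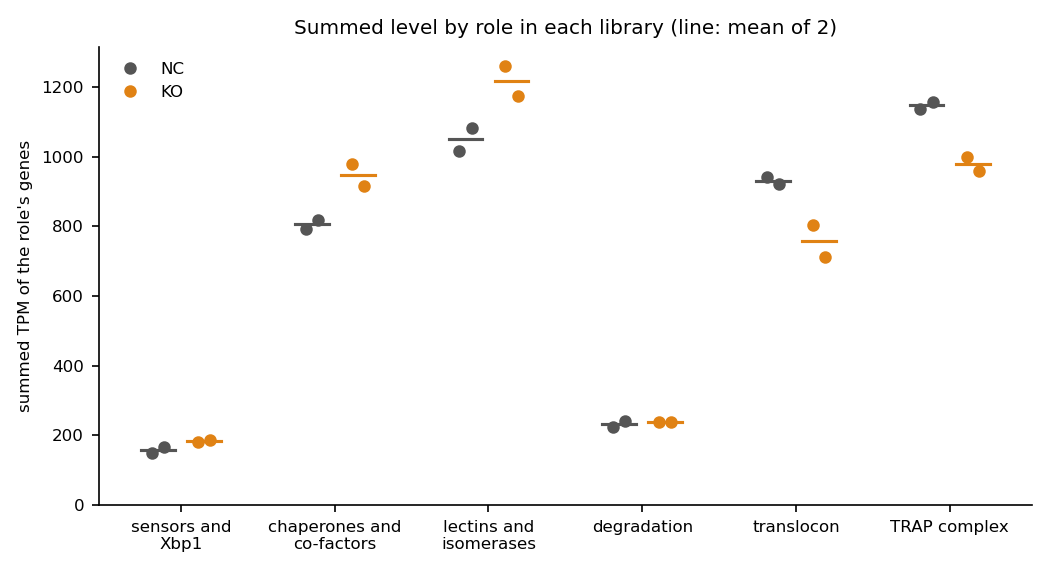
Summed TPM of the genes of each role in each library (points) with the mean of the 2 libraries of a group (line); NC is grey and KO orange. The sums of chaperones (carried by Hspa5 and Hsp90b1), and of lectins and isomerases, lie higher in KO, and those of translocon and TRAP genes lie lower. Calr, Sec61b and Ssr2 made up most of the change in the lectin, translocon and TRAP sums, in that order. ERAD genes lie between 223 and 240 TPM in all libraries.

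The 3 sensors did not move together. Ern1, the gene of IRE1, had 89.7 and 114 CPM in NC and 71.7 and 70.5 CPM in KO. Both KO libraries lay below both NC libraries, and the log2 fold change came to -0.53 (SE 0.10, adjusted p = 0.000247). Without NC 2 it was -0.33 (adjusted p = 0.0354), still called. In TPM the libraries overlapped (14.7 and 23.7 in NC, 16.5 and 14.1 in KO), with an estimated mean transcript length that differed up to 1.28-fold between libraries, and the limma fit on log2(TPM + 1) gave -0.28 (adjusted p = 0.395). Eif2ak3, the gene of PERK, which slows translation when the ER is stressed, had 24.8 and 26.8 CPM in NC and 33.9 and 38.7 CPM in KO. It rose by 0.49 (log2; SE 0.12; adjusted p = 0.00155), or 1.41-fold, with KO above NC, and the TPM fit gave 0.47 (adjusted p = 0.0685). Atf6 had 117 and 133 CPM in NC and 118 and 121 CPM in KO, with overlap, and its log2 fold change was -0.068 (95% interval -0.26 to 0.13, adjusted p = 0.606).

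Xbp1, the factor activated by IRE1, had 191 and 188 CPM in NC and 209 and 235 CPM in KO. The KO libraries were higher without overlap, but the log2 fold change of 0.22 (95% interval 0.03 to 0.41) had an adjusted p of 0.0564 and was not called; it was called without KO 1 (0.31, adjusted p = 0.0117) and by a robust edgeR fit (adjusted p = 0.0423), and was 0.14 without KO 2 (adjusted p = 0.355). These gene totals do not separate spliced from unspliced Xbp1 mRNA.

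**Figure D4:**
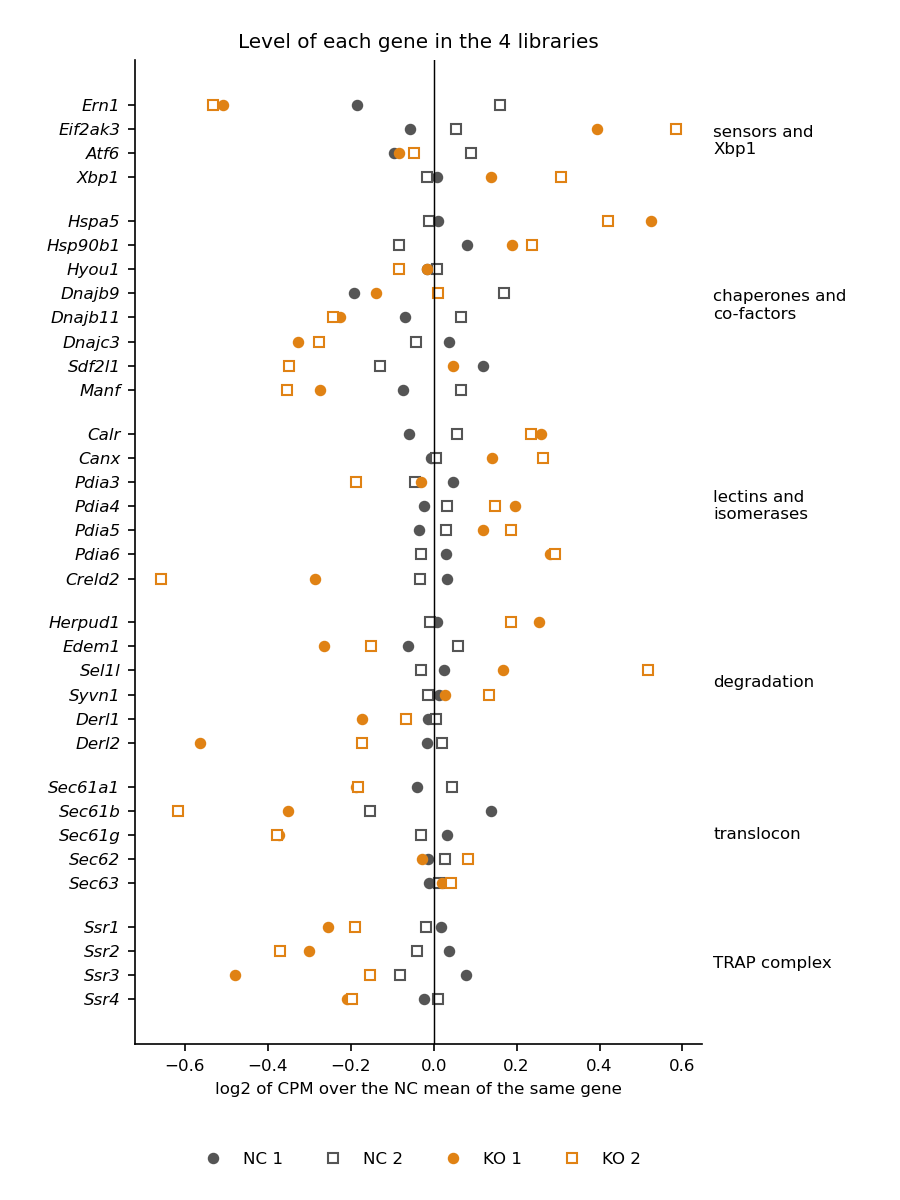
CPM of each tested member in each library, as the log2 of its ratio to the NC mean of the same gene; NC is grey, KO orange, circles are replicate 1 and open squares replicate 2. Hspa5 and Eif2ak3 show both KO libraries well above NC, and Creld2, Sel1l, Derl2 and Ssr3 show KO libraries that lie apart from each other.

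Among the chaperones, Hspa5 had the clearest rise. BiP, its product, binds unfolded chains in the ER and holds the sensors inactive. Hspa5 had 525 and 517 CPM in NC and 749 and 697 CPM in KO. Both KO libraries stood far above NC relative to the gap between replicates, and the log2 fold change was 0.47 (SE 0.09, 95% interval 0.28 to 0.66, adjusted p = 0.000222), or 1.39-fold. It was called under each of the 12 alternatives tried.

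Hsp90b1, the gene of the ER Hsp90 GRP94, had 728 and 650 CPM in NC and 785 and 812 CPM in KO, a log2 fold change of 0.21 (adjusted p = 0.0777) that was not called. Its exons overlap those of the predicted gene Gm15344 on the same strand and its expected counts were not all whole, so its level is uncertain. The nucleotide exchange factor gene Hyou1 overlapped, with 178 and 181 CPM in NC and 178 and 170 CPM in KO (log2 fold change -0.044, adjusted p = 0.741).

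None of the J-domain partners of BiP rose. Dnajc3, whose product p58IPK binds BiP as a co-chaperone, had 53.7 and 50.8 CPM in NC and 41.7 and 43.2 CPM in KO. The log2 fold change was -0.30 (SE 0.10, adjusted p = 0.0199). Without NC 1 it was -0.26 (adjusted p = 0.132) and without KO 1 -0.27 (adjusted p = 0.0778), so the call rests on those libraries, and DESeq2 did not make it (adjusted p = 0.0828). Dnajb11 had 28.4 and 31.2 CPM in NC and 25.5 and 25.2 CPM in KO (-0.23, adjusted p = 0.123), and Dnajb9, the gene of ERdj4, overlapped between groups at between 21.8 and 28.0 CPM (-0.069, adjusted p = 0.724). Sdf2l1, which encodes a partner of the J-domain proteins, was low and overlapped, at between 4.96 and 6.86 CPM (-0.13, adjusted p = 0.674).

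Manf, which encodes a secreted ER stress protein that also binds BiP, had 94.4 and 104 CPM in NC and 82.1 and 77.7 CPM in KO. It fell by 0.32 (log2; SE 0.09; adjusted p = 0.00958). Without NC 2 the value was -0.24 (adjusted p = 0.147) and the call was lost. Exons of Manf overlap those of Rbm15b on the same strand and of Dcaf1 on the other.

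Calnexin (Canx) and calreticulin (Calr) are lectins that hold glycoproteins while they fold, and Pdia3 encodes the disulfide isomerase that works with them. Calr had 703 and 761 CPM in NC and 876 and 862 CPM in KO, giving a log2 fold change of 0.25 with SE 0.09 and adjusted p = 0.0369. The groups did not overlap, but the call was lost without NC 1 (0.19, adjusted p = 0.26), without NC 2 (0.31, adjusted p = 0.0513) and without KO 1 (0.24, adjusted p = 0.067). Canx had 444 and 448 CPM in NC and 492 and 535 CPM in KO, and its log2 fold change of 0.20 was not called (adjusted p = 0.0844), except without KO 1 (0.26, adjusted p = 0.0386). Pdia3 overlapped between the groups, at 634 and 595 CPM in NC and 601 and 539 CPM in KO (-0.11, adjusted p = 0.39).

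Of the other isomerases Pdia6, whose product works with BiP, had 191 and 183 CPM in NC and 227 and 229 CPM in KO. It rose by 0.29 (SE 0.09, adjusted p = 0.0131), with KO libraries close together and above NC; without NC 2 the value was 0.26 (adjusted p = 0.102). Pdia4 (128 and 133 CPM against 149 and 144 CPM) and Pdia5 (32.7 and 34.2 CPM against 36.4 and 38.1 CPM) had log2 fold changes of 0.17 and 0.15 and were not called (adjusted p = 0.148 and 0.275). Creld2, which encodes a secreted isomerase-like protein induced by ER stress, went the other way. It had 17.6 and 16.8 CPM in NC and 14.1 and 10.9 CPM in KO, a log2 change of -0.46 (SE 0.15, adjusted p = 0.0198). The value was -0.42 without NC 1 (adjusted p = 0.0872), -0.49 without NC 2 (adjusted p = 0.0588) and -0.28 without KO 2 (adjusted p = 0.25), and the call was lost each time.

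The ERAD genes moved in both directions. Sel1l, which encodes the adaptor of the HRD1 ubiquitin ligase, had 28.1 and 27.0 CPM in NC and 31.0 and 39.5 CPM in KO. The KO libraries lay apart, and the log2 fold change of 0.36 (SE 0.12, adjusted p = 0.0228) became 0.17 without KO 2 (adjusted p = 0.393) and 0.33 without NC 2 (adjusted p = 0.0943). Syvn1, the gene of HRD1 itself, was not called, at 105 and 103 CPM in NC and 106 and 114 CPM in KO (0.082, adjusted p = 0.511). Herpud1, an ER stress-induced part of the ligase complex, had 86.1 and 85.1 CPM in NC and 102 and 97.4 CPM in KO (0.22, adjusted p = 0.0592), and Edem1, whose product hands misfolded glycoproteins to ERAD, 66.1 and 71.9 CPM in NC and 57.4 and 62.1 CPM in KO (-0.21, adjusted p = 0.0923). Neither was called. In CPM neither overlapped between groups, which held for 69.4% of all genes. In TPM Edem1 overlapped (14.6 and 22.6 in NC, 18.1 and 18.7 in KO), with an estimated mean transcript length that differed up to 1.33-fold between libraries.

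The Derlin genes encode membrane proteins of the retrotranslocation step. Derl2 had 28.8 and 29.5 CPM in NC and 19.7 and 25.8 CPM in KO, a log2 change of -0.36 (SE 0.13, adjusted p = 0.0331). Without KO 1 the value was -0.17 (adjusted p = 0.384), without NC 1 -0.38 (adjusted p = 0.0538) and without NC 2 -0.33 (adjusted p = 0.12); without KO 2 it was -0.57 (adjusted p = 0.00171). The limma fit on log2(TPM + 1) gave -0.56 for Derl2 (adjusted p = 0.035). Its estimated mean transcript length was 1407 and 1547 bases in NC and 1739 and 1740 bases in KO, which enters the TPM values. Exons of Derl2 overlap those of Mis12 on the other strand. Derl1 had between 197 and 223 CPM (-0.12, adjusted p = 0.333). Derl3, an ERAD gene known for induction by XBP1, was counted 2 times in each NC library and 8 and 9 times in KO, under the filter on low counts; with no filter it was tested and not called.

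Of the 5 channel genes 2 fell and none rose, where 18.2% of all genes were lower and 19.7% higher; a count over 5 genes is not read further. Sec61b and Sec61g encode the small beta and gamma subunits of the Sec61 channel, and Sec61a1 its pore. Sec61b had 153 and 125 CPM in NC and 109 and 90.6 CPM in KO, without overlap, a log2 change of -0.48 (SE 0.11, adjusted p = 0.000789). Sec61g had 63.8 and 61.1 CPM in NC and 48.2 and 48.0 CPM in KO, with replicates close together, a log2 change of -0.37 (SE 0.10, adjusted p = 0.00339). Sec61a1 had 384 and 407 CPM in NC and 347 and 348 CPM in KO, also without overlap, and its log2 fold change of -0.19 was not called (adjusted p = 0.107). Sec62 and Sec63, whose products help a class of proteins into the channel after translation, were not called: Sec62 lay between 101 and 109 CPM (0.025, 95% interval -0.17 to 0.22) and Sec63 between 96.0 and 99.7 CPM (0.031, 95% interval -0.16 to 0.22). The expected counts of Sec61g, Sec61a1 and Sec62 were not whole numbers in some library, as happens where reads fit more than 1 gene; the same held for Eif2ak3, Derl2 and Hsp90b1, and the levels of all 6 are less certain.

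The TRAP complex, encoded by Ssr1 to Ssr4, sits beside the channel and helps some proteins to enter it. All 4 genes had negative log2 fold changes, and 2 were called lower, where 18.2% of all genes were. A count over 4 genes is not read further. Ssr2 had 517 and 490 CPM in NC and 409 and 390 CPM in KO, without overlap (-0.34, SE 0.09, adjusted p = 0.00488). Ssr3 had 515 and 461 CPM in NC and 350 and 439 CPM in KO (-0.30, SE 0.10, adjusted p = 0.0205); without KO 1 it was -0.15 (adjusted p = 0.295), without NC 1 -0.22 (adjusted p = 0.158) and without KO 2 -0.48 (adjusted p = 0.000132). Ssr4 had 124 and 127 CPM against 109 and 110 CPM (-0.20, adjusted p = 0.0904). Ssr1 had 231 and 225 CPM against 191 and 200 CPM (-0.22, adjusted p = 0.0539), but on the log2(TPM + 1) scale its sign turned to 0.12 (adjusted p = 0.633), with an estimated transcript length that differed up to 1.48-fold between libraries. A robust edgeR fit called Ssr1 lower (adjusted p = 0.0435).

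Transcript length moved with the fold changes across the whole transcriptome, and Sec61b, Sec61g, Ssr4 and Manf are short. Over all tested genes with a mean transcript length up to 1000 bases the median log2 fold change was -0.145, and 24.3% were lower and 11.2% higher in KO. Over genes longer than 4000 bases the median was 0.115, and 11.4% were lower and 29.2% higher. Mean lengths were 543 bases for Sec61b, 584 for Sec61g, 803 for Ssr4 and 876 for Manf. With the trend on length removed, an alternative chosen after seeing the data, Sec61b was still lower (-0.31, adjusted p = 0.0212), while Sec61g (-0.22, adjusted p = 0.0862), Ssr2 (-0.22, adjusted p = 0.0606) and Manf (-0.18, adjusted p = 0.148) were not called, and Ssr4 was at -0.051 (adjusted p = 0.702). Ssr3 (-0.34, adjusted p = 0.0117) and the long Ssr1 (-0.35, adjusted p = 0.00319) were lower, as was Edem1 (-0.29, adjusted p = 0.022), and Xbp1 (0.25, adjusted p = 0.0368) and Herpud1 (0.25, adjusted p = 0.0329) were higher. Hspa5 (0.46), Eif2ak3 (0.41), Calr (0.27), Pdia6 (0.31), Ern1 (-0.64) and Dnajc3 (-0.40) kept their calls, and Creld2, Sel1l and Derl2 lost theirs (adjusted p = 0.0548, 0.129 and 0.0657). The counts then stood at 6 higher and 6 lower, with 8 of the 14 genes shared. That was 35.3% of the members tested, where 36.3% of all genes were called.

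**Figure D5:**
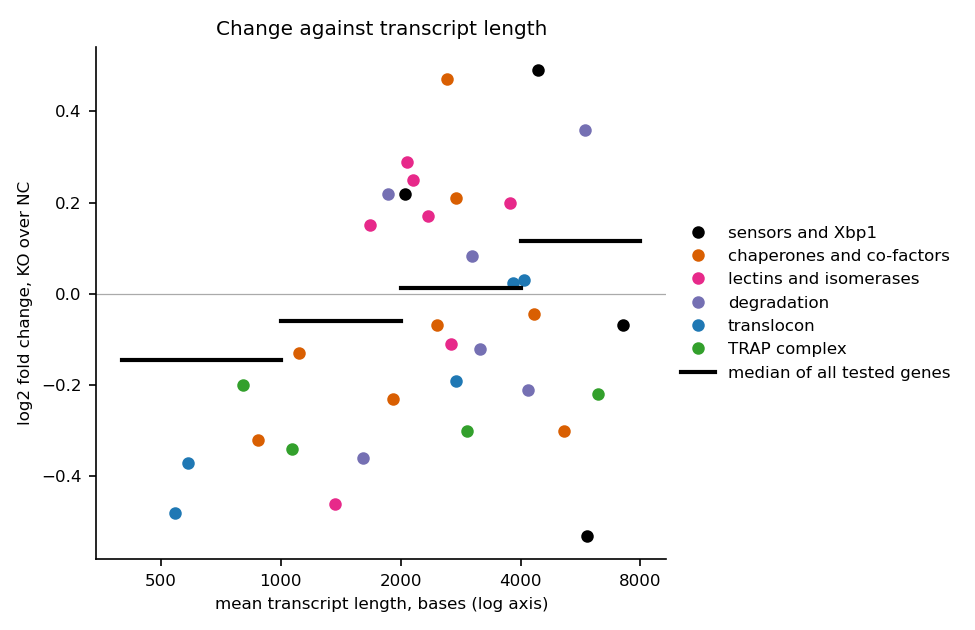
Log2 fold change of the 34 tested members against mean transcript length (log axis), coloured by role; black lines are the medians of all tested genes in 4 length classes, the first and last of which are open-ended. The lines climb from -0.145 to 0.115, Sec61b and Sec61g lie at the short end below their line, and the members between 2000 and 4000 bases lie on both sides.

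In TPM the most abundant were Ssr2 (667 in NC, 552 in KO), Sec61b (504 and 374) and Calr (417 and 522), followed in NC by Hsp90b1 (294), Pdia3 (275) and Ssr4 (245), and by Hspa5 (242). The libraries of Ssr4 and Hspa5 overlapped in NC. In KO the order was Ssr2, Calr, Sec61b, Hsp90b1 (365) and Hspa5 (344), above Pdia3 (266) and Ssr4 (221), with overlapping libraries for Ssr2 and Calr and among Sec61b, Hsp90b1 and Hspa5. The ratio of Hspa5 to Sec61b was 0.443 and 0.523 in the NC libraries and 0.881 and 0.964 in the KO libraries, a pair put side by side after their values were seen. The sensors Ern1 (19.2 and 15.3) and Eif2ak3 (6.76 and 9.74) were far less abundant, and their ratio (Eif2ak3 to Ern1) was 0.444 and 0.295 in NC and 0.572 and 0.714 in KO.

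Members with an ERSE were found in both directions. Of the 9 with an ERSE 8 were tested, and 3 were higher (Hspa5, Calr, Pdia6), 2 lower (Creld2, Dnajc3) and 3 not called (Hsp90b1, Canx, Syvn1), with a median log2 fold change of 0.207. Over all genes 19.7% were higher and 18.2% lower, and 8 genes are too few to read these counts against that. Of the 20 members with a window and no ERSE, 2 were higher and 5 lower, with a median of -0.12. None of the translocon or TRAP genes with a window had an ERSE, and Sec61a1 and Ssr2 had no window. These are counts over a list whose members were partly known for the element, with no test.

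Other ER genes were taken from 5 lists (115 genes, of which 111 were tested): 21 were higher (18.9%) and 30 lower, 45.9% in all, against 19.7% higher, 18.2% lower and 37.9% called over all genes. Of the 25 further folding genes 6 were higher and 4 lower (median -0.043). Ero1l, which encodes the oxidase that recharges the disulfide isomerases, rose from 132 and 137 CPM to 318 and 414 CPM, by 1.44 on the log2 scale (adjusted p = 4.25e-11). P4hb, the gene of protein disulfide isomerase itself, rose from 883 and 932 CPM to 1360 and 1320 CPM (0.56, adjusted p = 3.17e-05), Tmx4 rose by 0.55 and Cnpy3 fell by 0.41. Ero1l and P4hb had larger fold changes than any isomerase gene among the members. Of the 27 further degradation genes 5 were higher and 6 lower (median -0.066); the lectin gene Os9 (0.57) and Herpud2 (0.67) rose, and Nploc4 (-0.34) and Ubxn4 (-0.33) fell.

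The next list held genes for targeting proteins to the ER and cutting their signal peptides. It also held Tram1, Tram2, Sec61a2 and the Emc genes of the ER membrane complex. Genes of this list were mostly lower where called. Of 29 tested 2 were higher (6.9%) and 12 lower (41.4%), against 19.7% and 18.2% of all genes (median -0.184). The translocating chain protein gene Tram1 fell from 211 and 208 CPM to 130 and 156 CPM (-0.55, adjusted p = 6.35e-05), and the signal peptidase gene Spcs2 (-0.48), Get4 (-0.47) and Emc10 (-0.45) fell as well. Of the 11 oligosaccharyltransferase genes, whose products attach sugar chains as proteins enter, 0 were higher and 4 lower (median -0.197): Tmem258 (-0.52), Ost4 (-0.44), Ostc (-0.37) and Ddost (-0.36). That is 36.4% called, where 37.9% of all genes were called and 18.2% were lower. A count over 11 genes is not read further. Exons of Tmem258 overlap Fen1 and those of Ost4 overlap Agbl5, each on the other strand. With the length trend removed the medians of these 2 lists were -0.141 and -0.252, with 1 higher and 8 lower, and 0 higher and 6 lower. In that fit 2355 of all 12510 genes were higher and 2180 lower (36.3% called), with a median of -0.0012.

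The last list held factors that act after the sensors, but also Atf6b, Creb3 family genes, Wfs1, Tmbim6, Bax and Bak1. Several genes of this list had larger fold changes than any sensor. Of 19 tested 8 were higher (42.1%) and 4 lower (21.1%), against 19.7% and 18.2% of all genes (median 0.164). Atf3, a stress-induced transcription factor gene, rose from 12.2 and 12.3 CPM to 39.5 and 36.6 CPM (1.64, adjusted p = 1.69e-10). Ddit3, the gene of the stress factor CHOP, rose from 14.6 and 10.4 CPM to 31.2 and 29.1 CPM (1.28, adjusted p = 1.31e-07), and Ppp1r15a, whose product reverses the translation block set by PERK, from 52.2 and 51.2 CPM to 117 and 114 CPM (1.16, adjusted p = 3.28e-10). Atf6b, the gene of the ATF6 relative, fell from 77.1 and 73.1 CPM to 45.3 and 41.0 CPM (-0.80, adjusted p = 5.25e-07), where the log2 fold change of Atf6 was -0.068. Exons of Ddit3 overlap a second gene model of the same symbol on the same strand and Mars on the other, and those of Ppp1r15a overlap Tulp2 on the other strand. These genes also respond to signals from outside the ER, and their source was not tested.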

How the data were processed

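RNA from 2 NC and 2 KO libraries of Hepa1-6 cells was extracted with TRIzol and made into strand-keeping libraries, per the labels' protocols. FastQC, STAR, RSEM and DESeq2 and the build GRCm38 (mm10) are named in the submitters' processing notes, with no versions or roles; the annotation release and the strand setting are not given in the sources used here. The deposited expected counts are the authors' estimates of reads per gene, not normalised, in which reads that fit several genes are shared out, per the file headers. The deposited TPM values are scaled by the authors for length and library size, and the deposited FPKM values were not used. Transcript lengths (other numbers in the deposited files) are the authors' means over the transcripts of a gene.

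Genes were matched to GENCODE M21 for overlaps (54723 of 54838 by ID). Expected counts were rounded, which moved a library's total by at most 0.000188%, filtered with filterByExpr (12510 genes kept) and scaled by TMM (factors 0.981 to 1.02). The test was edgeR's quasi-likelihood F test of KO against NC (edgeR 4.0.16, R 4.3.3), with group as the only term, Benjamini-Hochberg adjusted over all genes, threshold 0.05. CPM are counts scaled to the TMM-adjusted library size. Standard errors and 95% intervals come from the fold change and its F statistic. Since each group has 2 libraries, most of the variance estimate is borrowed from other genes (25.8 prior degrees of freedom). The intervals include counting error and the spread of these libraries, and nothing else. The test was checked on simulated data.

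Members, roles, lists and alternatives were chosen with earlier results of these data known. All members are named, and from each other list the up to 4 genes with the lowest p past 0.05. Alternatives were no filter, DESeq2 1.42.0, its size factors in edgeR, a robust fit, the replicate number as a block, limma 3.58.1 on log2(TPM + 1) and log2(TPM + 0.1), each library left out and, chosen after seeing the data, removal of the length trend (lowess, span 0.3).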

Additional observations from a re-analysis of the deposited data

How the results depend on the processing

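With both TPM fits the calls thinned most. Limma on log2(TPM + 1) called 2158 genes, and 2 members higher and 1 lower. Its member median was 0.009, against 0.0596 over all genes. On log2(TPM + 0.1) it called 2099 genes, 2 members higher and 1 lower, with a member median of 0.011 against 0.0701 over all genes. In the count fit these medians were -0.088 and -0.0037, so the member median lay below that of all genes in each fit. Of the called genes 68.0% were higher in both TPM fits, against 51.9% in the count fit, and the cause was not tested. Leaving out 1 library gave between 3586 and 4472 genes, between 2 and 6 members higher, between 5 and 8 lower and a member median between -0.095 and -0.06. DESeq2 called 3217 genes, 4 members higher and 6 lower.

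Some members that were not called changed sign. On log2(TPM + 1) and log2(TPM + 0.1) Hyou1 was 0.0733 and 0.0747, Dnajb9 0.00299 and 0.00426, Edem1 0.0151 and 0.0175, and Ssr1 0.12 and 0.12. With the length trend removed Sec62 was -0.0391 and Sec63 -0.0454. With 1 library left out Atf6 ranged from -0.15 to 0.033, Dnajb9 from -0.23 to 0.14, Sdf2l1 from -0.34 to 0.0532 and Sec62 from -0.0325 to 0.0824. None of these values was called. With the replicate number as a block (replicate block) 5006 genes, 5 members higher and 9 lower were called, the same 14. The deviations of libraries numbered 1 from their group means had a correlation of -0.012 over genes. With 2 libraries a group this value cannot settle whether the numbers mark pairs. Derl3, with at most 9 counts in a library, was tested only with no filter, where it was not called and the 14 calls were the same.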
